A study of Homo sapiens with 18 samples.

Results

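Replication-dependent histone genes were examined in HEK293, a line derived from human embryonic kidney, made to overexpress the mouse flagellin receptor TLR5. Members were the rows of the array that carried exactly 1 gene symbol and whose symbol was that of a histone gene of the HIST1, HIST2 or HIST3 cluster, with the row of the highest mean standing for each gene. This gave 30 genes of the 22357 genes with such a row: 6 for the linker histone H1, 8 for H2A, 14 for H2B, 1 for H3 and 1 for H4. Of these, 23 exceeded the median of the array on 3 or more of 18 arrays and were tested among 16111 genes: 3 H1, 6 H2A, 13 H2B and the H3 gene. H1-3, H1-5, H1-6, H2AC12, H2AC14, H2BC1 and H4C7 did not reach that level. H2AC2P and H2BC20P are annotated as transcribed pseudogenes.

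The cells received flagellin isolated from the probiotic Escherichia coli Nissle (EcN), flagellin isolated from Salmonella Typhimurium SL1344 (ST), or no flagellin (mock), and total RNA was taken after 60 or 120 min. The 6 groups, EcN, ST and mock at 60 min and EcN, ST and mock at 120 min, had 3 arrays each, lettered A, B and C. Cells of every group, mock included, overexpressed murine TLR5 and had been grown in SILAC medium (lysine and arginine in a heavy, medium or light form). Which array had which amino acid label, the promoter of the TLR5 construct and whether the line was 1 clone are not known from the labels, so label and treatment cannot be told apart. The labels call the letters biological replicates without naming separate cultures, and p-values then measure the spread between these samples, which may be technical. For the 6 ST arrays the description field names mock, whereas title, source name and treatment field name ST, and these were followed. Of 8 HEK293 markers with a row, 7 (PAX2, NEFL, LIN28B, VIM, KRT8, KRT18 and EYA1) lay above the array median on all 18 arrays.

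Chromatin is built from nucleosomes, each a spool of H2A, H2B, H3 and H4, with H1 bound to the linker DNA between them. Most of this protein is made while DNA is copied, from clustered genes that NPAT switches on as cells enter S phase. Their mRNAs mostly carry no poly(A) tail but end in a stem-loop that SLBP binds, after a cut that the U7 small nuclear ribonucleoprotein directs. The many copies of each core histone gene encode nearly the same protein, while their promoters differ. Probe sequences were not used here, so signal from a near-identical copy on a member's row cannot be told apart from the member's own.

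Promoters of the 4 H2B genes on which the results below turn are shown, because these genes encode nearly the same histone and differed in direction. Each is the 200 bases before the start of the gene, 5' to 3' on the strand of the gene, from RefSeq (GRCh38.p14), and capitals mark ATTTGCAT (the octamer that Oct-1 is known to bind in H2B promoters), CCAAT (the box bound by NF-Y) and TGACGTCA (the element bound by CREB and ATF factors) on either strand, where CCAAT on the opposite strand reads ATTGG. Capital stretches do not overlap.
H2BC12, chr6:27146859-27147058, strand minus: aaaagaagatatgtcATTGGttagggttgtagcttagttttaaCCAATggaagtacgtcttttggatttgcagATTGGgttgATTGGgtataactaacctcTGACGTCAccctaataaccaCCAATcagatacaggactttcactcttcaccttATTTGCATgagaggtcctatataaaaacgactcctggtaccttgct
H2BC13, chr6:27807930-27808129, strand minus: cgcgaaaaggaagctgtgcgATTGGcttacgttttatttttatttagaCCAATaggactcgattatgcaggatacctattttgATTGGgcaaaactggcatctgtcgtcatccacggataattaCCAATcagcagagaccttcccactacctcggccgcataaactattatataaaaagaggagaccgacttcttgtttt
H2BC14, chr6:27814822-27815021, strand plus: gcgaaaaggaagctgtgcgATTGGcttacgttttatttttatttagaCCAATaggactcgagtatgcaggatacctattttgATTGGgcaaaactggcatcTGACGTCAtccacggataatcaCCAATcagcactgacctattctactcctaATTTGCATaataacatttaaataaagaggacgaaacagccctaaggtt
H2BC21, chr1:149886683-149886882, strand minus: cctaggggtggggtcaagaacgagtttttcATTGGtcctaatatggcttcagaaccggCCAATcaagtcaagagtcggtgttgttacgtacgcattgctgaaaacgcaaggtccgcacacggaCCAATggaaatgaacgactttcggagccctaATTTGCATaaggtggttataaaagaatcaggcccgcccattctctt
H2BC12 and H2BC14 held all of the octamer, CCAAT and TGACGTCA, H2BC13 held CCAAT alone, and H2BC21 held the octamer and CCAAT. Aligned over this stretch, H2BC13 and H2BC14 shared 84.3% of bases, and the other pairs of these 4 shared between 51.5% and 63%. H2BC12 has 2 start entries in the table, and the first was used.

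RefSeq promoters were found for 27 of the 30 members, all but H2AC12, H2AC2P and H2BC20P. In the 250 bases before the start, ATTTGCAT on either strand was present in 9 of 13 H2B, 5 of 6 H2A and 0 of 6 H1 promoters, against 1.63% of 35116 promoters in the table. CCAAT was present in 26 of 27 members' promoters (32% of all promoters), TATAAA in 19 of 27 (10.7%) and TGACGTCA in 3 of 27, those of H2BC12, H2BC14 and H2AC14 (1.65%). Windows of the table, which also hold 50 bases after the start, overlapped on opposite strands between neighbours: those of H2AC20 and H2BC21 by 265 bases, and likewise those of H2AC14 and H2BC14 (256 bases), H2AC25 and H2BC26 (271 bases) and H2AC1 and H2BC1 (286 bases). In such pairs a match on the same bases is counted for both genes. Shared matches include the TGACGTCA, octamer and TATAAA of H2AC14 and H2BC14, and the octamers of H2AC20 with H2BC21 and H2AC1 with H2BC1. CCAAT matches were shared in these pairs as well, and in H2AC25 with H2BC26. H2BC14 counts among the 19 with TATAAA only through a match at -219 on the opposite strand, which is the TATAAA of H2AC14. The counts of promoters are therefore not counts of separate elements. A match describes the letters in the window and is not a measured binding site.

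After 60 min, a few histone genes differed from mock and most were not called. With EcN flagellin, H2BC14 and H2BC12 fell and H2AC20 rose. With ST flagellin, H2BC12, H2BC14, H2BC13 and H2AC21 fell and H2BC21 rose. In all, 3 of 23 genes were called for EcN (1 higher, 2 lower) and 5 for ST (1 higher, 4 lower) at an adjusted p under 0.05, beside 6.45% and 5.26% of all genes tested (3.08% higher and 3.37% lower for EcN, 2.23% higher and 3.03% lower for ST). The median log2 difference over the 23 was -0.10 for EcN and -0.05 for ST, against 0.01 and 0 over all genes tested. All arrays of the flagellin group lay above all mock arrays for 4 genes and below them for 4 with EcN (16.7% and 15.2% of all genes), and for 4 and 7 with ST (14.2% and 15.9%). H2AC1, a dim gene that entered the test mainly through the mock 60 min arrays, was among those below with either flagellin. Both comparisons share the 3 mock arrays of 60 min. In bulk RNA, fewer cells in S phase and less histone mRNA per cell cannot be told apart. The 15 tested genes of the HIST1 cluster held 2 of the genes lower with EcN and 3 of those lower with ST and none higher, while the 6 tested genes of the HIST2 cluster held 1 higher with EcN, and 1 higher and 1 lower with ST.

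**Figure D1:**
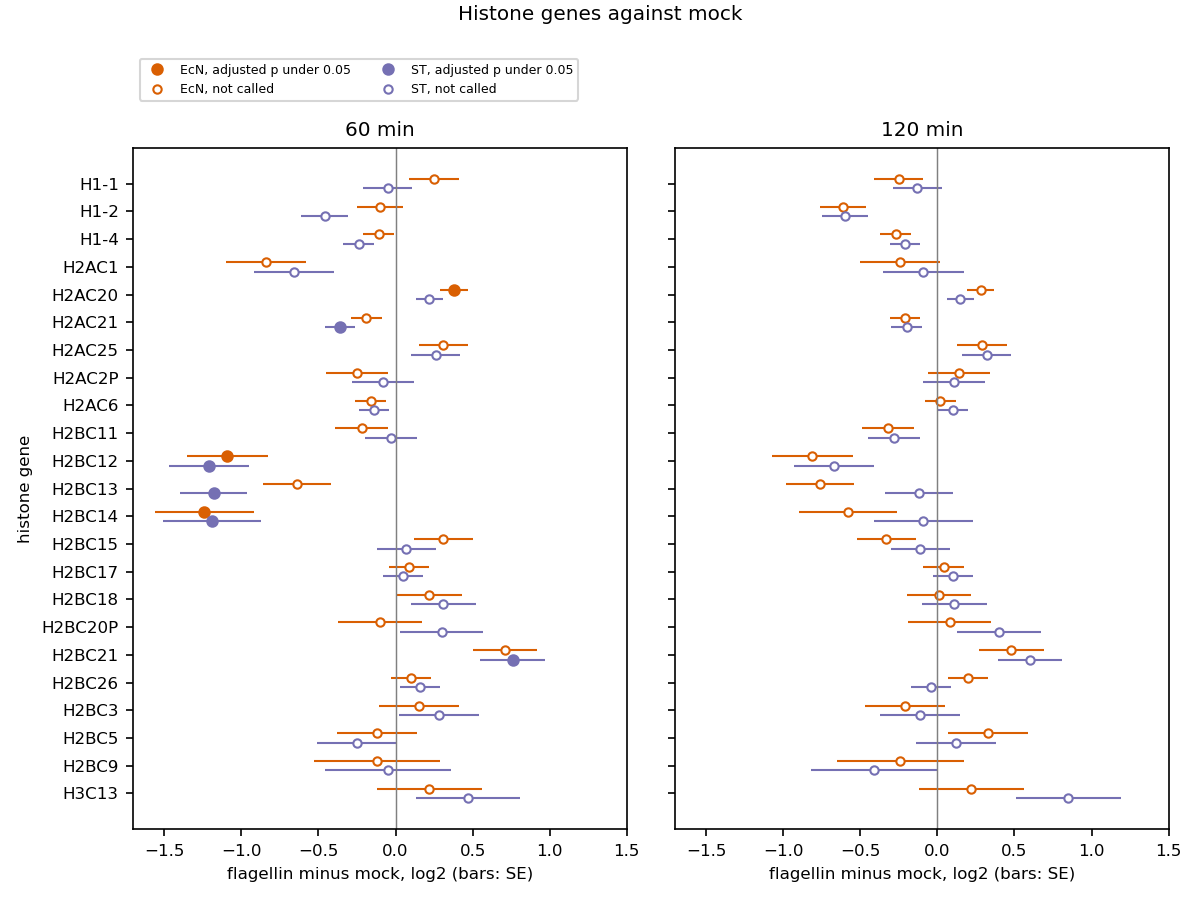
Log2 difference from mock (horizontal axis) of the 23 tested histone genes (vertical axis) at 60 and 120 min, for EcN (orange) and ST (purple) flagellin. Bars are the SE of the limma fit and filled points were called at an adjusted p under 0.05: 3 for EcN and 5 for ST at 60 min, and 0 at 120 min.

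H2BC12 (transcript cluster 17016457, formerly HIST1H2BK) had log2 levels of 9.04, 9.36 and 9.16 in EcN 60 min, 9.03, 9.01 and 9.15 in ST 60 min, and 9.80, 10.29 and 10.73 in mock 60 min. Every flagellin array lay below every mock array. It fell by 1.09 ± 0.26 on the log2 scale with EcN (2.12-fold, adjusted p = 0.0274, limma) and by 1.21 ± 0.26 with ST (2.31-fold, adjusted p = 0.0192), where ± is the SE of the fit.

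H2BC14 (transcript cluster 17005865, formerly HIST1H2BM) stood at log2 levels of 5.36, 6.50 and 6.08 in EcN 60 min, 5.61, 6.33 and 6.13 in ST 60 min, and 7.11, 7.27 and 7.27 in mock 60 min. The mock arrays were close together and the flagellin arrays spread over about 1 log2 unit, without overlap. It fell with EcN (log2 difference -1.24 ± 0.32, 2.36-fold, adjusted p = 0.0347) and with ST (-1.19 ± 0.32, 2.29-fold, adjusted p = 0.0418). Of the H2B genes it had the largest range of group means, 1.53 log2 units over the 6 groups.

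H2BC13 (transcript cluster 17016486, formerly HIST1H2BL) had log2 levels of 5.15, 4.82 and 4.60 in EcN 60 min, 4.57, 4.17 and 4.21 in ST 60 min, and 5.39, 5.47 and 5.63 in mock 60 min. Both flagellin groups lay below mock, ST with the wider gap. The difference passed the test with ST (-1.18 ± 0.22, 2.26-fold, adjusted p = 0.0145) and not with EcN (-0.64 ± 0.22, adjusted p = 0.0944).

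H2BC21 (transcript cluster 16692632, formerly HIST2H2BE) went the other way. Its log2 levels were 6.55, 7.07 and 6.64 in EcN 60 min, 6.53, 6.99 and 6.92 in ST 60 min, and 6.08, 6.19 and 5.88 in mock 60 min, with no overlap. It rose by 0.76 ± 0.21 with ST (1.70-fold, adjusted p = 0.0443), and the difference of 0.71 ± 0.21 with EcN did not pass (adjusted p = 0.0528).

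**Figure D2:**
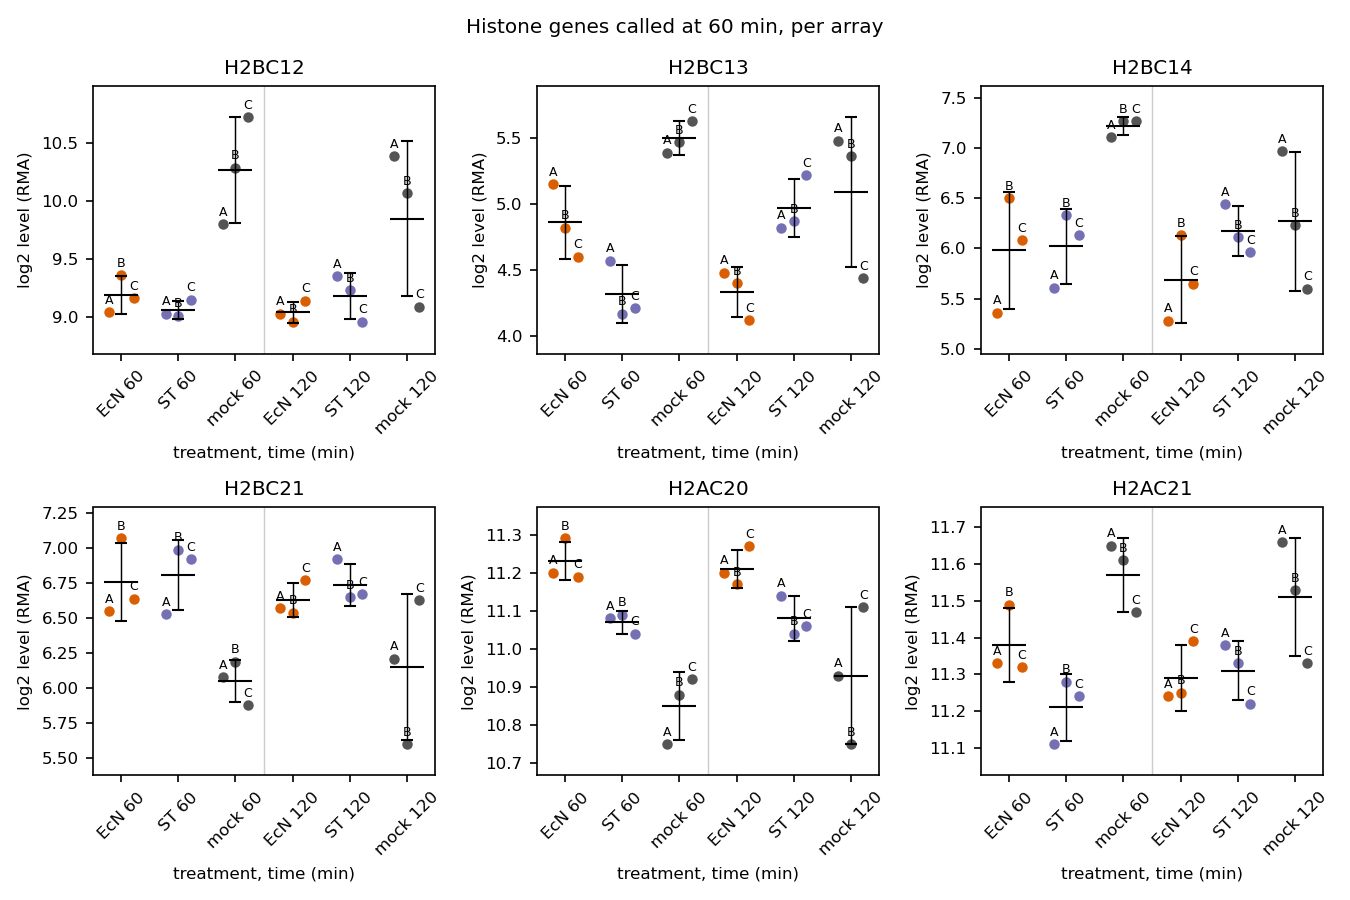
Log2 RMA level (vertical axis) of the 6 histone genes called at 60 min on each array, by treatment and time (horizontal axis), with the letter of the array beside its point and the group mean ± SD in black (n = 3). H2BC12, H2BC13 and H2BC14 lie lower and H2BC21 and H2AC20 lie higher in both flagellin groups at 60 min than in mock 60 min, and mock 120 min C lies apart from mock 120 min A and B in H2BC12 and H2BC13.

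The other 9 tested H2B genes were not called with either flagellin. Their log2 differences at 60 min lay between -0.22 and 0.31 with EcN and between -0.25 and 0.31 with ST. H2BC17, whose level was above the array median on every array, differed by 0.09 ± 0.13 with EcN (95% confidence interval -0.19 to 0.36) and by 0.05 ± 0.13 with ST (-0.23 to 0.33). H2BC26 of the HIST3 cluster differed by 0.10 ± 0.13 (-0.18 to 0.39) and 0.16 ± 0.13 (-0.12 to 0.45). These intervals of H2BC17 and H2BC26 exclude a fall of the size seen in H2BC12 and H2BC14. Other intervals among the 9 were wider, reaching down to -0.99 with EcN and -0.93 with ST in H2BC9, and to -0.67 and -0.80 in H2BC5. H2BC3 and H2BC9 were above the array median on 14 and 4 arrays with levels near that median.

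Among the H2A genes, H2AC20 (transcript cluster 16670401, formerly HIST2H2AC), the divergent neighbour of H2BC21, had log2 levels of 11.20, 11.29 and 11.19 in EcN 60 min, 11.08, 11.09 and 11.04 in ST 60 min, and 10.75, 10.88 and 10.92 in mock 60 min. All flagellin arrays were above all mock arrays by a small margin. It rose by 0.38 ± 0.09 with EcN (1.30-fold, adjusted p = 0.0313), and the difference of 0.22 ± 0.09 with ST did not pass (adjusted p = 0.17).

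H2AC21 (transcript cluster 16692636, formerly HIST2H2AB) had log2 levels of 11.33, 11.49 and 11.32 in EcN 60 min, 11.11, 11.28 and 11.24 in ST 60 min, and 11.65, 11.61 and 11.47 in mock 60 min. The ST arrays lay below the mock arrays, and EcN 60 min B overlapped mock 60 min C. It fell with ST (-0.36 ± 0.10, 1.28-fold, adjusted p = 0.0496) and did not pass with EcN (-0.19 ± 0.10, adjusted p = 0.247).

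H2AC1 (transcript cluster 17016296), a testis histone gene, had the largest range of group means among the H2A genes, 0.85 log2 units, near the background of the array. Its log2 levels were 1.47, 2.19 and 1.62 in EcN 60 min, 1.61, 1.89 and 2.32 in ST 60 min, and 2.78, 2.61 and 2.41 in mock 60 min, and at 120 min 1.83, 1.80 and 1.61 in EcN, 2.03, 1.71 and 1.96 in ST, and 1.46, 1.79 and 2.72 in mock. It lay above the array median, between 2.27 and 2.32 on all arrays, on 5 arrays, 3 of them mock 60 min, so it entered the test mainly through that group. H2AC6, above the median on all 18 arrays, differed from mock 60 min by -0.16 ± 0.10 with EcN and -0.14 ± 0.10 with ST (adjusted p = 0.308 and 0.413).

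The linker histone genes H1-2 and H1-4 were above the array median on all arrays and were not called at 60 min. H1-2 (transcript cluster 17016372) had log2 levels of 8.80, 8.68 and 8.35 in EcN 60 min, 8.40, 8.35 and 7.99 in ST 60 min, and 8.70, 8.69 and 8.73 in mock 60 min. Only the ST arrays stood wholly below mock, with a log2 difference of -0.46 ± 0.15 (adjusted p = 0.0864), against -0.10 ± 0.15 with EcN (adjusted p = 0.732). H1-4 differed by -0.24 ± 0.10 with ST (adjusted p = 0.158) and -0.11 ± 0.10 with EcN (adjusted p = 0.523). H1-1 lay above the median on 4 arrays.

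H3 and H4 are represented by 1 dim gene each. H3C13 (transcript cluster 16692614), above the array median on 3 arrays, had log2 levels of 2.22, 2.35 and 1.32 in EcN 60 min, 1.92, 1.90 and 2.81 in ST 60 min, 1.14, 2.13 and 1.96 in mock 60 min, 1.93, 2.07 and 1.08 in EcN 120 min, 2.69, 2.21 and 2.07 in ST 120 min, and 1.60, 1.13 and 1.68 in mock 120 min. Those 3 arrays were EcN 60 min B, ST 60 min C and ST 120 min A, so H3C13 entered the test only through flagellin arrays. The groups overlapped at 60 min and the ST arrays lay above mock at 120 min (0.85 ± 0.34, adjusted p = 0.212), from which no support is drawn. H4C7 (transcript cluster 17016396) was above the median on no array, with log2 levels between 0.98 and 1.66.

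Most H3 and H4 genes share a row with other copies. The array had 40 rows whose symbols were several histone genes, which name no single gene. Of distinct rows, 9 of 9 H2A, 3 of 5 H2B, 7 of 10 H3 and 12 of 13 H4 rows passed the filter and were tested with all rows of the table that passed it. No shared row was called with EcN at 60 min (2.20% of 30449 rows were), and 1 H2A row was lower with ST (2.62% of rows). That row (transcript cluster 17016496), which names 6 genes, had log2 levels of 8.48, 8.45 and 8.37 in EcN 60 min, 7.88, 8.11 and 8.18 in ST 60 min, and 9.17, 8.98 and 9.79 in mock 60 min. It fell with ST (-1.26 ± 0.29, adjusted p = 0.0381), and the difference with EcN did not pass (-0.88 ± 0.29, adjusted p = 0.104). The H4 rows lay between -0.23 and 0.22 with EcN and between -0.37 and 0.17 with ST, and the H3 rows between -0.33 and 0.21 and between -0.47 and 0.15.

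The number of calls at 60 min depended on single arrays. The share of all genes called without each array is not given here, so these counts are not read as particular to histone genes. The EcN count of 3 became 0 without EcN 60 min A, B or C or without mock 60 min B or C, 1 without mock 60 min A, 5 without mock 120 min A and 6 without mock 120 min C. The ST count of 5 became 0 without ST 60 min C or mock 60 min C, and 1 without ST 60 min A, ST 60 min B or mock 60 min B. It became 2 without mock 60 min A, EcN 60 min C, EcN 120 min C, ST 120 min A or ST 120 min B, and 3 without EcN 120 min A, EcN 120 min B or ST 120 min C. Over 31 alternatives the log2 difference of H2BC12 with ST stayed between -1.45 and -0.98 and was called in 25, that of H2BC13 with ST stayed between -1.31 and -1.06 and was called in 29. With ST, H2BC14 was called in 16, H2BC21 in 11 and H2AC21 in 6. With EcN, H2BC12 was called in 24, H2BC14 in 21 and H2AC20 in 20.

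After 120 min, 0 of 23 histone genes were called with either flagellin (limma), beside 0.0621% of all genes tested for EcN and 0.559% for ST. At an unadjusted p under 0.05, 6 genes differed for EcN and 5 for ST, beside 16.5% and 17.6% of all genes. All arrays of the flagellin group lay above mock for 2 genes and below for 4 with EcN (8.52% and 9.11% of all genes), and for 2 and 1 with ST (8.81% and 7.68%). H1-1, a dim gene above the array median on only 4 arrays, was 1 of the 4 below with EcN, with group means of 1.93 against 2.17 in mock. H3C13, which entered the test only through flagellin arrays, was 1 of the 2 above with ST and 1 of the 5 at an unadjusted p under 0.05. The smallest p-values belonged to H1-2, H2BC13 and H2BC12 for EcN and to H1-2, H2BC21 and H2BC12 for ST. H1-2 had log2 levels of 8.55, 8.06 and 8.21 in EcN 120 min, 8.46, 8.34 and 8.02 in ST 120 min, and 8.88, 8.98 and 8.78 in mock 120 min. No flagellin array overlapped mock, and the log2 differences were -0.61 ± 0.15 (adjusted p = 0.0891) and -0.60 ± 0.15 (adjusted p = 0.0807).

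H2BC12 had log2 levels of 9.03, 8.96 and 9.14 in EcN 120 min, 9.35, 9.23 and 8.96 in ST 120 min, and 10.39, 10.07 and 9.09 in mock 120 min. H2BC13 had 4.48, 4.40 and 4.12 in EcN 120 min, 4.82, 4.87 and 5.22 in ST 120 min, and 5.48, 5.36 and 4.44 in mock 120 min. H2BC21 had 6.57, 6.54 and 6.77 in EcN 120 min, 6.92, 6.65 and 6.67 in ST 120 min, and 6.21, 5.60 and 6.63 in mock 120 min. Mock 120 min C stood within the range of the flagellin arrays in all 3 genes. Mock 120 min A and B stood near mock 60 min in H2BC12 and H2BC13, while in H2BC21 mock 120 min B was below every mock 60 min array, at -0.45 from their mean. With all 18 arrays, the log2 differences of H2BC12 were -0.81 ± 0.26 with EcN (adjusted p = 0.136) and -0.67 ± 0.26 with ST (adjusted p = 0.197), that of H2BC13 was -0.76 ± 0.22 with EcN (adjusted p = 0.119), and that of H2BC21 was 0.60 ± 0.21 with ST (adjusted p = 0.16).

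Mock 120 min C differed from the mean of mock 60 min by -1.18 in H2BC12, -1.06 in H2BC13, -1.62 in H2BC14, 0.58 in H2BC21 and 0.26 in H2AC20. Whether an array labelled mock at 120 min carries a wrong label cannot be told from the labels, and every comparison with mock at 120 min rests on them. Mock 120 min C lay within the range of the 12 flagellin arrays for 20 of 23 tested histone genes, beside 85.6% of all genes tested. Without this array, a choice made after its values were seen, 6 histone genes were called with EcN at 120 min (7.31% of all genes) and 3 with ST (4.44%). H2BC12 fell with EcN (-1.18 ± 0.20, adjusted p = 0.00669) and with ST (-1.04 ± 0.20, adjusted p = 0.0147), H2BC21 rose (0.72 ± 0.20, adjusted p = 0.0391, and 0.84 ± 0.20, adjusted p = 0.0292) and H1-2 fell (-0.66 ± 0.17, adjusted p = 0.0359, and -0.65 ± 0.17, adjusted p = 0.0471). H2BC13 (-1.09 ± 0.18, adjusted p = 0.00536), H1-4 (-0.35 ± 0.10, adjusted p = 0.0458) and H2AC20 (0.37 ± 0.09, adjusted p = 0.0253) passed with EcN and not with ST. H2BC14 passed with neither (adjusted p = 0.0973 and 0.492).

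**Figure D3:**
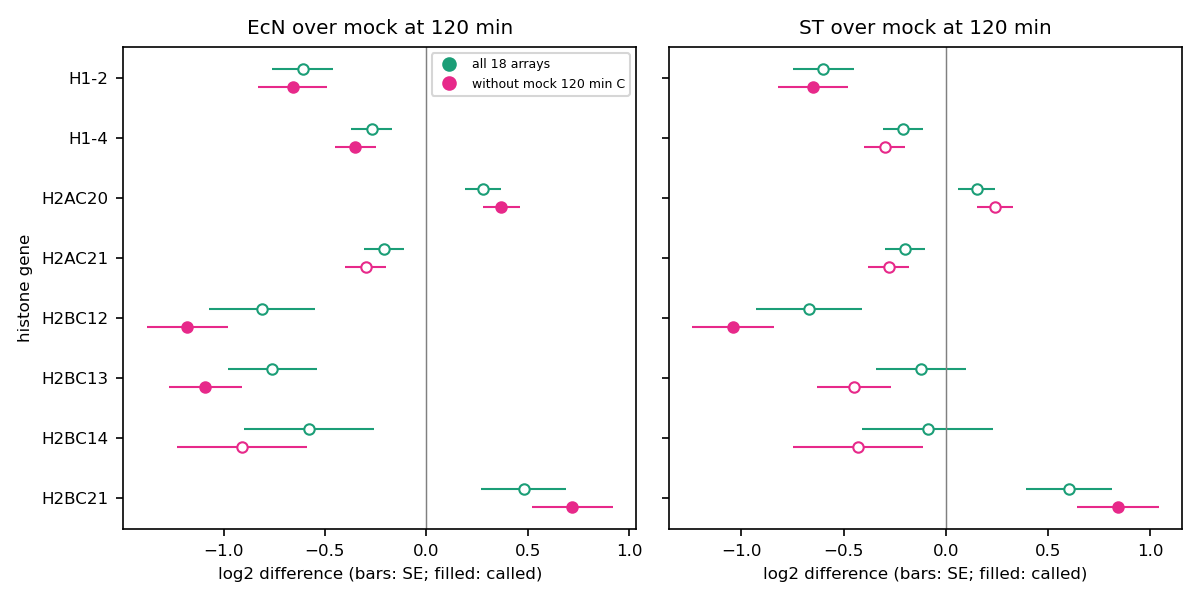
Log2 difference from mock at 120 min (horizontal axis) of 8 histone genes (vertical axis), for EcN and ST flagellin, with all 18 arrays (green) and without mock 120 min C (pink). Bars are the SE of the limma fit and filled points were called: none with all arrays, and 6 genes for EcN and 3 for ST without that array.

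Set against the 5 other mock arrays, all 12 flagellin arrays lay above in H2AC20 and H2BC21 and below in H2BC12 and H2BC13. These 4 of 23 genes stand beside 5.00% of all genes tested, and leaving out mock 120 min C was chosen on these values. H2BC12 ranged from 8.96 to 9.36 (median 9.09) over the 12 flagellin arrays and from 9.80 to 10.73 (median 10.29) over those 5 mock arrays. H2BC14 did not separate: mock 120 min B had 6.23, inside the flagellin range of 5.28 to 6.50.

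**Figure D4:**
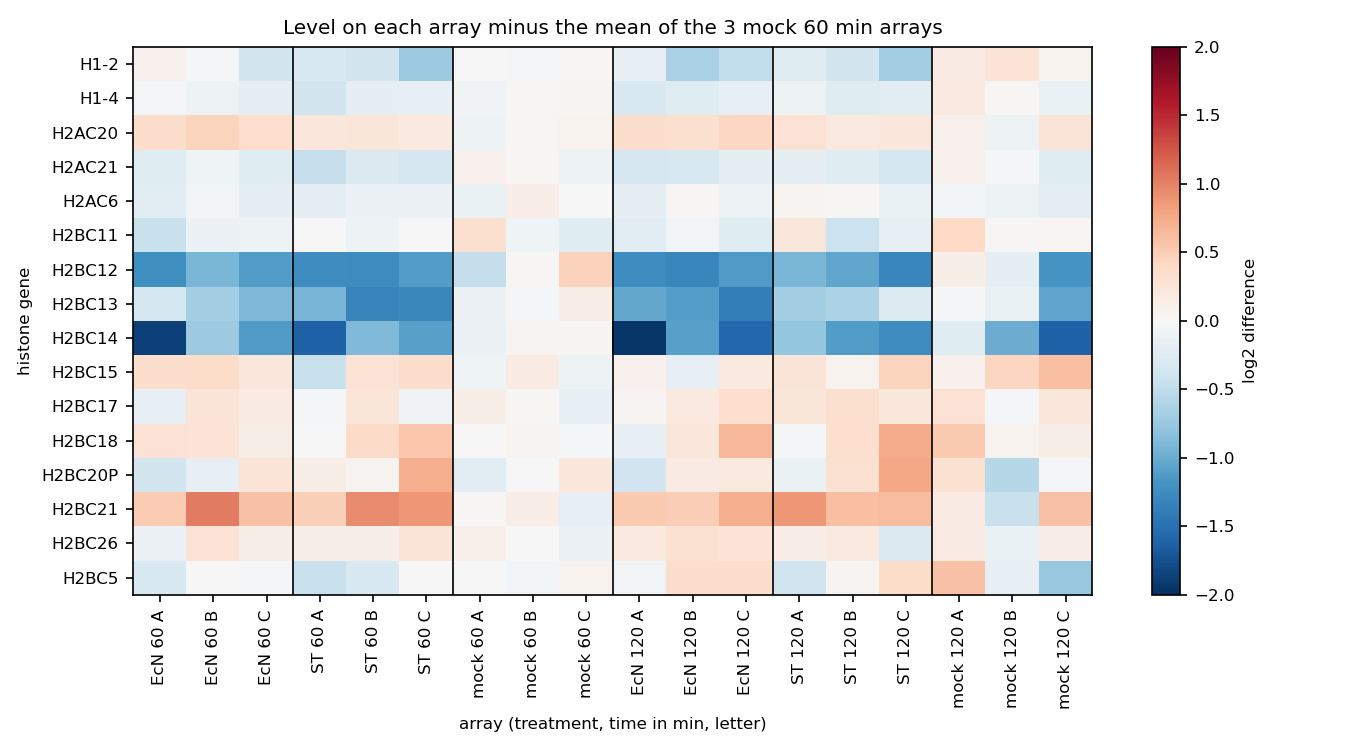
Level of the 16 histone genes above the array median on all 18 arrays (vertical axis), on each array (horizontal axis), as the log2 difference from the mean of the 3 mock 60 min arrays (red higher, blue lower). H2BC12, H2BC13 and H2BC14 are blue on the 12 flagellin arrays and on mock 120 min C, where they stand at -1.18, -1.06 and -1.62. Other mock arrays are blue in single genes, such as mock 120 min B in H2BC14 (-0.99) and mock 60 min A in H2BC12 (-0.47).

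Between the flagellins, 0 of 23 histone genes were called at 60 or at 120 min (limma), as were 0% of all genes tested. At an unadjusted p under 0.05, 2 genes differed at 60 min and 1 at 120 min, beside 9.19% and 11.7% of all genes. The ST arrays lay above all EcN arrays for 0 genes and below for 3 at 60 min (8.14% and 9.89% of all genes), and for 2 and 1 at 120 min (10.5% and 10.4%). H3C13, which entered the test only through EcN 60 min B, ST 60 min C and ST 120 min A, was 1 of the 2 above at 120 min. H2BC13 was among the genes without overlap at both times, with ST minus EcN at -0.54 ± 0.22 at 60 min (95% confidence interval -1.02 to -0.07, adjusted p = 0.469) and 0.64 ± 0.22 at 120 min (0.17 to 1.11, adjusted p = 0.307). The ST arrays lay below the EcN arrays at 60 min (highest 4.57 against lowest 4.60) and above them at 120 min (lowest 4.82 against highest 4.48). For H2BC12 the difference was -0.12 ± 0.26 at 60 min (-0.67 to 0.42) and 0.14 ± 0.26 at 120 min (-0.40 to 0.68), and for H2BC21 0.06 ± 0.21 (-0.38 to 0.50) and 0.12 ± 0.21 (-0.32 to 0.56). These intervals leave room for differences of up to 0.68 log2 units.

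Whether a flagellin's difference from mock at 120 min departed from that at 60 min was tested as an interaction, which called 0 of 23 histone genes (0% of all genes tested). At an unadjusted p under 0.05 the change differed from 0 for 3 genes with EcN and 2 with ST, beside 12% and 10.7% of all genes. The 2 with ST were H2BC13 (1.05 ± 0.32, adjusted p = 0.363) and H2BC14 (1.10 ± 0.45, adjusted p = 0.426). H2BC14 had log2 levels of 5.28, 6.13 and 5.65 in EcN 120 min, 6.44, 6.11 and 5.96 in ST 120 min, and 6.97, 6.23 and 5.60 in mock 120 min. These mock arrays spread through the flagellin range, and mock at 120 min minus mock at 60 min was -0.95 ± 0.32 (adjusted p = 0.288). No histone gene was called between the mock groups, and 2 differed at an unadjusted p under 0.05 (12.1% of all genes). H2AC1, which entered the test mainly through the mock 60 min arrays, was 1 of these 2. All arrays of mock 120 min lay above those of mock 60 min for 2 genes and below for 1 (5.62% and 7.04% of all genes).

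NFKBIA, an NF-kB target and inhibitor, was high on 5 arrays spread over 5 groups: EcN 60 min C, ST 60 min C, EcN 120 min C, ST 120 min C and mock 120 min A, with log2 levels of 10.15, 10.85, 10.34, 10.64 and 10.83, against 8.09 to 8.82 on the other 13. H2BC12 on those 5 arrays, relative to the mean of mock 60 min, stood at -1.12, -1.12, -1.14 and -1.31 on the 4 with flagellin, while mock 120 min A was at 0.11. On the flagellin arrays lettered A and B, where NFKBIA was low, H2BC12 stood between -1.32 and -0.91. CXCL8, a chemokine gene, ranged from 5.62 to 8.76 on the 4 flagellin arrays lettered C. It stood at 7.53 on mock 120 min A and between 2.16 and 2.9 on the other 13 arrays. Neither NFKBIA nor CXCL8 thus followed the treatment labels, and the reason was not tested. ISG15, a further marker, came closer to the labels, with log2 levels of 3.17 to 4.28 on the mock arrays and 4.22 to 7.08 on the flagellin arrays. Its ranges overlapped only through mock 120 min C, the highest mock array (4.28), and EcN 60 min A, the lowest flagellin array (4.22). Without the 5 arrays of high NFKBIA, 1 histone gene was called with EcN and 2 with ST at 60 min. Shares of all genes called in that fit are not given here, so these counts are not read as particular to histone genes.

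The machinery of histone mRNA was examined as a list of 25 genes, of which 21 were tested. SLBP, the stem-loop binding protein, had log2 levels of 8.78, 8.63 and 8.37 in EcN 60 min, 8.69, 8.67 and 8.65 in ST 60 min, and 9.08, 8.91 and 9.14 in mock 60 min. Every flagellin array lay below every mock array, and SLBP fell with EcN (-0.45 ± 0.12, adjusted p = 0.0358) and did not pass with ST (-0.37 ± 0.12, adjusted p = 0.0756). ZNF473, a zinc finger protein of the U7-dependent processing complex, rose with EcN (0.39 ± 0.11, adjusted p = 0.0456) and ST (0.53 ± 0.11, adjusted p = 0.0174). NFYB, a subunit of the CCAAT-binding factor NF-Y, rose with EcN (0.53 ± 0.15, adjusted p = 0.0494). NPAT, the S phase activator of histone genes, differed by -0.33 ± 0.13 with EcN (adjusted p = 0.131) and -0.16 ± 0.13 with ST (adjusted p = 0.519). In all, 2 rose and 1 fell with EcN and 1 rose with ST among the 21, beside 6.45% of all genes called for EcN and 5.26% for ST, and the list's median difference was 0.02 and 0.03.

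Of 34 genes of the G1/S transition and S phase, 33 were tested. Called were 2 with EcN and 3 with ST, to be read against the same shares of all genes. The repressor E2F8 fell with EcN (-0.54 ± 0.12, adjusted p = 0.0235) and ST (-0.53 ± 0.12, adjusted p = 0.0227), the flap endonuclease FEN1 rose (0.34 ± 0.10, adjusted p = 0.0452, and 0.37 ± 0.10, adjusted p = 0.039), and the nucleoside transporter SLC29A1 fell with ST (-0.46 ± 0.11, adjusted p = 0.0249). The other members were not called, and the medians were 0.01 and 0.07. Of 20 genes of G2 and mitosis, the checkpoint kinase BUB1 fell with both (-0.42 ± 0.11, adjusted p = 0.0361, and -0.43 ± 0.11, adjusted p = 0.0339), with medians of -0.07 and -0.19. Of 15 tested histone chaperones, ASF1A, which binds H3 and H4, fell with EcN (-0.67 ± 0.13, 1.59-fold, adjusted p = 0.0189). Of 7 tested histone variant genes outside the member rule 0 were called. Among them H2AX lay lower on every flagellin array than on every mock array at 60 min (-0.36 ± 0.13 with EcN, adjusted p = 0.097, and -0.37 ± 0.13 with ST, adjusted p = 0.0999), and MACROH2A2, which encodes a macroH2A variant, lay higher on every flagellin array (0.38 ± 0.11 with EcN, adjusted p = 0.0519, and 0.36 ± 0.11 with ST, adjusted p = 0.0695). Over all genes tested, 15.2% lay wholly below mock at 60 min with EcN and 15.9% with ST, and 16.7% and 14.2% lay wholly above. None of these 5 lists held a called gene at 120 min.

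Lists that stand for RNA quality and for cell types also held called genes at 60 min, and their shares are read against the same 6.45% of all genes for EcN and 5.26% for ST. Among 8 tested non-polyadenylated small RNAs 1 rose with each flagellin, TERC with EcN (0.57 ± 0.13, adjusted p = 0.0251) and RNU11 with ST (1.03 ± 0.27, adjusted p = 0.0403). Of 12 tested ribosomal protein genes, RPS6 rose with EcN and ST (0.38 ± 0.10 each, adjusted p = 0.0378 and 0.043) and RPL37 with EcN (0.68 ± 0.18, adjusted p = 0.0404). Of 8 tested housekeeping genes, B2M rose with EcN (0.53 ± 0.11, adjusted p = 0.0194) and ST (0.39 ± 0.11, adjusted p = 0.0446). Calls were thus present in these lists beside those among the histone genes.

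Of the 8 tested HEK293 markers, the keratin gene KRT18 rose with EcN (0.44 ± 0.12, adjusted p = 0.0447) and ST (0.46 ± 0.12, adjusted p = 0.0416). Of 2 tested leukocyte markers, the lysosomal protein gene CD68 rose with EcN (0.39 ± 0.11, adjusted p = 0.0445), and of 6 tested intestinal epithelium markers, the Wnt pathway receptor gene LGR5 fell with EcN (-0.59 ± 0.16, adjusted p = 0.0364). Of 3 tested fibroblast markers 0 were called at 60 min, and LUM, a matrix proteoglycan gene, fell with ST at 120 min (-1.0 ± 0.20, adjusted p = 0.0419). Of the leukocyte markers, CD14 and CD68 were above the median on all 18 arrays and PTPRC and LYZ on none. Of the fibroblast markers, COL1A1 and LUM were above it on all 18 and COL1A2, DCN and FAP on none. Of the intestinal markers, CDX2, LGR5, CDH17 and EPCAM were above it on all 18 and LYZ on none. The mean log2 level of the leukocyte markers lay between 3.19 and 3.52 in EcN 60 min, 3.24 and 3.37 in ST 60 min and 3.24 and 3.43 in mock 60 min. That of the fibroblast markers lay between 2.84 and 2.98, 2.67 and 2.84, and 2.69 and 2.83 in the same groups, and that of the intestinal markers between 4.67 and 4.85, 4.83 and 4.86, and 4.80 and 4.93. The part of these genes in the histone differences was not tested.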

How the data were processed

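Total RNA of 18 samples was hybridised to Affymetrix gene arrays, 1 array per sample, and the authors deposited 1 table of log2 values made by RMA in oligo 1.30.0, per the submitters' processing notes. Its 53617 rows were named from the platform annotation: 23871 had 1 symbol, 1842 several, and 27904 none listed. Symbols were updated (655 of them) through the RefSeq gene table.

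From these values, genes above their array's median on at least 3 of 18 arrays were tested with limma 3.58.1 (lmFit, eBayes) in R 4.3.3, with 6 group means, 12 residual and 4.20 prior degrees of freedom, in 9 comparisons. Two-sided p-values were adjusted by Benjamini-Hochberg over 16111 genes. The fit was run on simulated data with changes larger than any histone difference given here, so that run does not bear on calls of the present size. Arrays give no read depth, and their number, 3 per group, limits the precision. Motifs and promoter alignments used Biopython 1.88.

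Members, gene lists and tests were chosen with earlier results of these data known. Histone genes called against mock were named, with values on every array for up to 6 per direction (the 3 smallest p where none was called) and for 1 gene of each histone type with the largest range of group means. From other lists called genes were named, or up to 4 by size. Alternatives were the filter, the row chosen per gene, limma's settings, array weights, normalization, the letter as a block and leaving out arrays. Over all genes, the deviations of same-letter arrays from their group means had a median correlation of 0.04 over 45 pairs, with 10 over 0.1. Letters were therefore not taken as pairs, although the flagellin arrays lettered C shared high NFKBIA.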

Additional observations from a re-analysis of the deposited data

How the results depend on the processing

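No named histone difference changed sign under those of the 31 alternatives that could be fitted to it. Leaving out single arrays, the count of called histone genes ranged from 0 to 6 for EcN over mock at 60 min (3 with all arrays), from 0 to 6 for ST over mock at 60 min (5), from 0 to 6 for EcN and from 0 to 3 for ST over mock at 120 min (0 each), and from 0 to 1 for mock at 120 over 60 min and for the change of the ST effect (0 each), where the 1 came without mock 120 min A. For EcN at 60 min the count was 5 with limma's trend and robust settings, 6 with array weights, 0 without the arrays lettered C, 1 without those and mock 120 min A, 1 without the 5 arrays of high NFKBIA, and 0 when all 30449 rows were tested together. For ST at 60 min it was 2 with no filter on dim rows, 3 after repeated quantile normalization, 1 without the arrays lettered C, 2 without those and mock 120 min A, 2 without the 5 arrays of high NFKBIA and 2 when all rows were tested together. The last 2 alternatives were added after seeing the data. With all rows tested together, 2.20% of rows were called for EcN and 2.62% for ST at 60 min. Apart from leaving out mock 120 min C, the share of all genes called under the other alternatives is not given here. The moves are therefore not read as particular to histone genes. At 120 min the count was 1 for EcN and 1 for ST with the trend and robust settings, 2 for EcN without the arrays lettered C, and 1 for ST without those and mock 120 min A. With the letter as a replicate block it was 3 for EcN and 3 for ST at 60 min and 1 for ST at 120 min. Over all genes the letters did not meet the rule for pairs, although the flagellin arrays lettered C shared high NFKBIA. Counts for ST over EcN at 60 and 120 min and for the change of the EcN effect were 0 under every alternative. The cause of these moves was not tested, apart from the smaller number of arrays or larger number of rows that the alternatives themselves bring. Over the 9 comparisons the median difference of all genes lay between -0.01 and 0.01 in the main fit. It lay between -0.04 and 0.06 after centring the arrays and between -0.01 and 0.01 after repeated quantile normalization.

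The limits are the 3 arrays per group, calls close to the threshold, rows on which near-identical histone copies cannot be told apart, the unknown amino acid label of each array, and mock arrays at 120 min that differed among themselves and whose labels could not be checked. NFKBIA and CXCL8 did not follow the treatment labels, in flagellin arrays as in mock. Dim genes such as H3C13 and H2AC1 were measured close to the array median.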
